A study of Danio rerio with 8 samples.

Results

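The Olig genes and the related *bhlhe22* and *bhlhe23* encode basic helix-loop-helix (bHLH) transcription factors, and 5 of them were described here across WT and *flrt2*-KO zebrafish eyes: *olig2*, *olig3*, *olig4*, *bhlhe22* and *bhlhe23*. They were taken from the 37114 rows of the gene table by gene name on chromosomes 1 to 25, a rule that found 4 of the 5. No row is named *olig3*. The gene ID that the name table pairs with OLIG3 stands in the file under the clone name FQ311955.1, and that row was used, so 5 of 5 genes were measured, and all 5 passed the filter on low values (at least 0.5 FPKM in at least 4 libraries). The RefSeq table gives *olig3* as another name of *olig4*, so the row called *olig3* here was matched by its ID, not by that name. *olig4* was picked because it was read in one group only, and it passed the filter through the 4 libraries of that group alone. Its difference between the groups is therefore a description with no test, and the other genes were taken for their family.

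RNA was sequenced from pools of about 40 eyes at 36 hours post-fertilisation (hpf), as the study's methods describe, from 4 WT samples titled AB and 4 samples of *flrt2* mutants with titles that start with CH1359. The mutants carry a CRISPR/Cas9 deletion in *flrt2*, which encodes a transmembrane protein with leucine-rich repeats, and were bred from founders in the AB background. The labels give the tissue as retina, while the methods speak of eyes. The WT libraries are numbered 1 to 4 for the title endings 12_16, 1_19, 1_8 and 1_8_ysy, and those labelled *flrt2*-KO are numbered 1 to 4 for 12_16, 1_19, 2_17 and 1_8_ysy. No label says that the samples came from separate clutches, so p-values measure the spread between these samples.

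Proteins of the bHLH class bind DNA as dimers. Tissue-restricted members such as Olig and Bhlhe proteins pair among themselves or with the broadly expressed E proteins, and Id proteins, which lack the DNA-binding basic region, hold E proteins in inactive dimers. Olig and Bhlhe22/23 proteins act mostly as transcriptional repressors. In the vertebrate nervous system they divide progenitors into domains and help to fix the identity of the neurons and glia that those progenitors produce.

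The 8 libraries held 13423932 to 14835885 reads in genes. *flrt2* itself, on chromosome 20, was not lower in the libraries labelled *flrt2*-KO (mean 3.37, SD 0.612 FPKM over n = 4) than in WT (mean 2.4, SD 0.137 FPKM over n = 4, exact two-sided permutation p = 0.0286, the smallest that 4 against 4 libraries can give). In the fit over all genes it was not called, with a log2 fold change of 0.40 (limma adjusted p = 0.110). The labels are therefore not checked by this gene, every direction below rests on them, and the group is called the KO-labelled libraries. All 13 genes of a list of eye and retinal progenitor genes were read, with summed levels of 486 to 614 FPKM in WT and 466 to 562 FPKM in the KO-labelled libraries. A list of 17 forebrain and midbrain genes from outside the eye was read as well, at 428 to 489 FPKM in WT and 427 to 482 FPKM in the other group. Among these, *otpa*, named after its values were seen and known from the hypothalamus, had 64.9 ± 6.45 FPKM in WT. The libraries labelled retina thus held RNA of brain genes, and the ranges of the sum overlapped between the groups. A list of 21 hindbrain and trunk genes summed to 8.62 to 24.5 FPKM in WT and 13.5 to 21.8 FPKM in the other group.

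Of the 5 genes, *olig2* was lower and *olig3* was higher in the KO-labelled libraries, *bhlhe22* and *bhlhe23* did not pass the test, and *olig4* was read in those libraries alone. The test was limma on log2(FPKM + 0.5) over 21012 genes with Benjamini-Hochberg adjustment, and calls were made where the adjusted p was under 0.05. By this rule 3288 genes, 15.6% of those tested, were called, 8.28% as higher and 7.37% as lower. With equal column sums the balance turned, from 1740 higher and 1548 lower to 1456 higher and 1768 lower. With the title ending as a block, described below, the count was 2126. Among the 4 genes with a test, 1 was called higher and 1 lower. FPKM are fragments counted relative to gene length and to a library size, so levels can be compared between genes. That size was not the total of reads in genes. It ranged from 0.930 times that total in KO-labelled library 3 to 1.07 times in WT 1. Means stand with their SD over n = 4 libraries of each group, as mean ± SD.

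**Figure D1:**
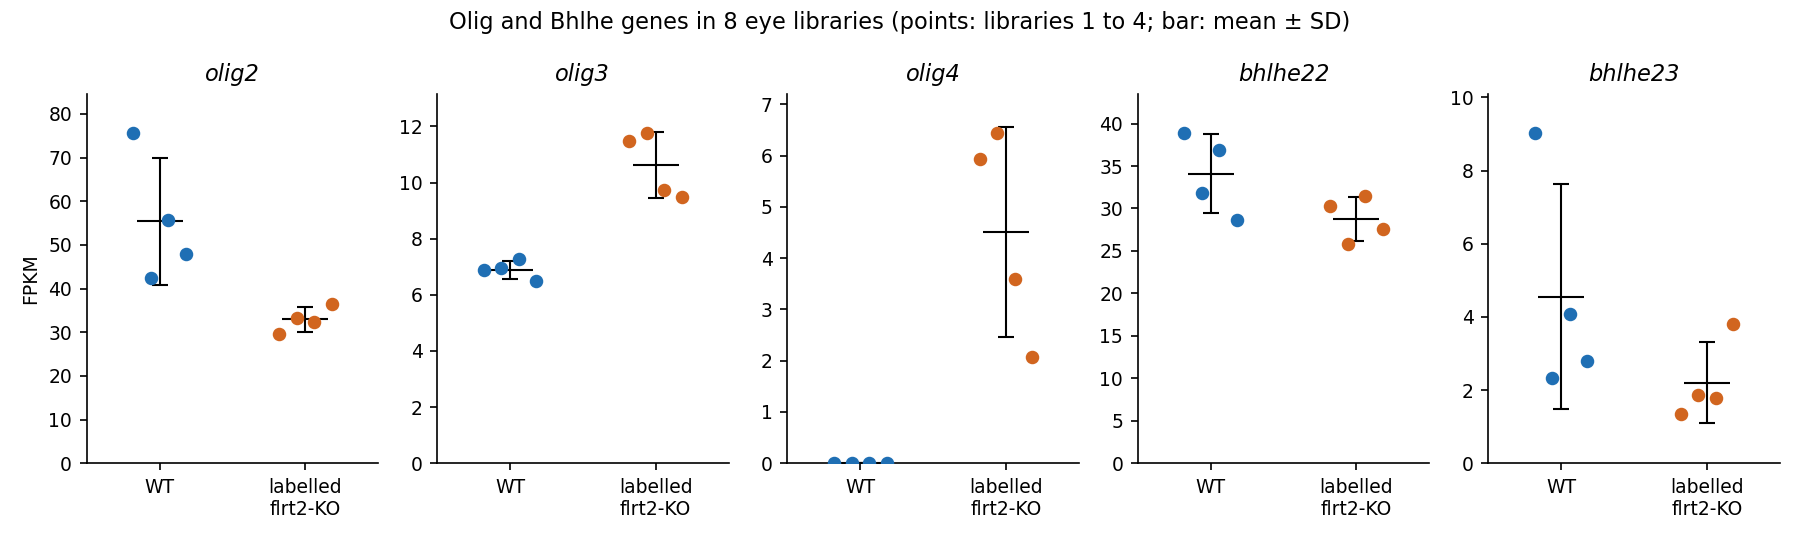
FPKM (y axes, from 0, with a separate scale for each gene) of the 5 genes in 4 WT libraries (blue) and 4 KO-labelled libraries (orange); each point is 1 library, in the order 1 to 4 from left to right, and the black bars are the mean and SD. The groups do not overlap in *olig2*, *olig3* and *olig4*, and they overlap in *bhlhe22* and *bhlhe23*.

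*olig2* is needed in the ventral spinal cord for motor neurons and for oligodendrocytes, the myelinating glia, and in the mouse retina it marks progenitors that are close to their last division. The gene (ENSDARG00000040946) lies on chromosome 9, 32751428 to 32753535 on GRCz11, minus strand. The WT libraries held 75.6, 42.4, 55.8 and 47.9 FPKM in replicates 1 to 4. The KO-labelled libraries held 29.6, 33.3, 32.5 and 36.5 FPKM. Every library of the second group lay below every WT library, and WT 1 stood above the other 3. Groups that did not overlap, with the KO-labelled libraries lower, were seen in 9.76% of all tested genes. The means were 55.4 ± 14.5 in WT and 33.0 ± 2.85 FPKM in the other group. The log2 fold change was -0.71 (SE 0.163, 95% interval -1.07 to -0.35, limma adjusted p = 0.0149). Libraries of the 2 groups that share a title ending had weakly correlated deviations from their group means (r = 0.106 to 0.141 across genes). Unlike pairs reached r = 0.112, so the pairing is not settled by these values. With that ending as a block the log2 fold change was -0.69 and the call was lost (limma adjusted p = 0.0992). In the fit with the block, WT 3 and KO-labelled library 3 have no partner, so that value rests on 3 pairs. Without WT 1 the log2 fold change was -0.55 (limma adjusted p = 0.0159).

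In pools of whole eyes, fewer cells that express a gene and less RNA per cell cannot be told apart, and this holds for each gene described here.

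*olig3* is known in mouse from the dorsal progenitors of the spinal cord and hindbrain. Its row (ENSDARG00000074253) lies on chromosome 13, 1305351 to 1308020, minus strand, and the file lists it as a processed transcript, not as a protein-coding gene. The WT libraries held 6.88, 6.97, 7.26 and 6.49 FPKM in replicates 1 to 4. The KO-labelled libraries held 11.5, 11.8, 9.74 and 9.48 FPKM. All 4 of the second group lay above all 4 WT libraries, and the WT values were close to each other. Such a separation, with the KO-labelled libraries higher, was seen in 11.4% of all tested genes. The means were 6.90 ± 0.319 FPKM and 10.6 ± 1.17 FPKM. The log2 fold change was 0.58 (SE 0.115, 95% interval 0.33 to 0.84, limma adjusted p = 0.00689). The row was called in each of the 17 alternatives, with limma adjusted p of 0.00673 to 0.0337, the last with the title ending as a block.

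*olig4* belongs to a branch of the Olig family known from fish and frogs. The gene (ENSDARG00000052610) lies on chromosome 13, 45967179 to 45968256, plus strand, far from the *olig3* row on the same chromosome. None of the 4 WT libraries held a read of it. The KO-labelled libraries held 89, 101, 53 and 30 reads in replicates 1 to 4. These correspond to 5.93, 6.44, 3.59 and 2.07 FPKM. The 4 values spread by 45.4% of their mean (coefficient of variation), against 8.65% for *olig2*, 8.90% for *bhlhe22*, 11.03% for *olig3* and 50.3% for *bhlhe23* in the same libraries. A count of 0 in the WT group allows up to 3 reads over its 4 libraries, counting error only. The pooled value of the KO-labelled libraries, 4.55 FPKM, was 99.0-fold above that floor of 0.046 FPKM. The spread of the KO-labelled libraries does not enter that ratio, so it is not a lower bound. The fitted log2 fold change, 3.22, depends on the value added before the logarithm and is no bound either.

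Such one-sided genes occurred in both directions. Among annotated genes on chromosomes 1 to 25, 62 were read in all 4 KO-labelled libraries and in none of the WT libraries, and 63 showed the reverse. *olig4* had the most reads of the 62, with 273, where their median was 18 and the next, CU459186.4, had 122. Just outside the rule, si:ch211-121a2.2 had 1014 reads in the KO-labelled libraries and 1 read in WT.

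The gene nearest to *olig4* with a value that passed the filter was *bsdc1*, which starts 11.9 kb after it on the same strand and encodes a protein with a BSD domain. The chromosome 13 row of *bsdc1* had 0.426 ± 0.151 in WT and 1.77 ± 0.313 FPKM in the KO-labelled libraries (log2 fold change 1.30, limma adjusted p = 0.00124). GRCz11 carries alternate contigs, which are other versions of parts of a chromosome, and the table has a second row of *bsdc1* on such a contig. That row had 9.87 ± 0.811 in WT and 9.85 ± 0.723 FPKM in the other group (limma adjusted p = 0.996). The chromosome 13 row took 1.35% to 2.88% of the reads of both *bsdc1* rows in WT and 7.53% to 10.6% in the KO-labelled libraries. The reads of *bsdc1* were therefore divided differently between the 2 rows in the groups, while most lay on the contig in all 8 libraries. No row on an alternate contig was matched to *olig4* or to any other of the 5 genes. The match needs a shared protein accession, so a row without one could not be matched, and an unmatched copy may exist. Whether reads of *olig4* from WT eyes align elsewhere was not tested.

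**Figure D2:**
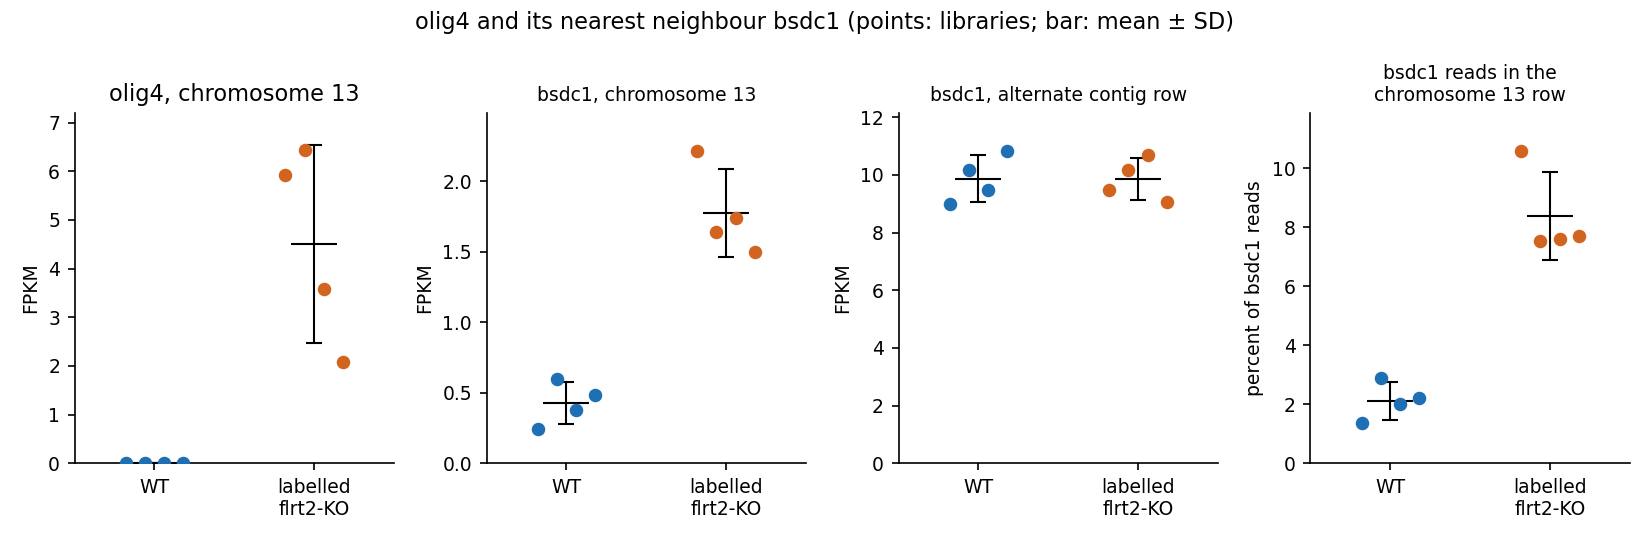
FPKM of *olig4*, of *bsdc1* on chromosome 13 and of *bsdc1* on an alternate contig, and the percent of *bsdc1* reads in the chromosome 13 row (y axes from 0), in 4 WT libraries (blue) and 4 KO-labelled libraries (orange); points are libraries 1 to 4 from left to right and black bars are the mean and SD. *olig4* is at 0 in WT, the chromosome 13 row of *bsdc1* is higher in the KO-labelled libraries, and its contig row is at 9.87 and 9.85 FPKM in the 2 groups.

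*bhlhe22*, once called Bhlhb5, is needed in the mouse retina for subtypes of amacrine cells and cone bipolar cells. The gene (ENSDARG00000058039) lies on chromosome 24, 24461341 to 24463346, plus strand. The WT libraries held 38.9, 31.9, 36.9 and 28.7 FPKM in replicates 1 to 4. The KO-labelled libraries held 30.3, 25.8, 31.4 and 27.6 FPKM. The groups overlap, with 34.1 ± 4.66 in WT and 28.8 ± 2.56 FPKM in the other. The log2 fold change of -0.24 did not pass the test (SE 0.119, 95% interval -0.50 to 0.03, limma adjusted p = 0.225), and the interval leaves room for a fall as well as for no difference. A non-coding gene on the opposite strand, BX323067.1, spans *bhlhe22* and had 2.59 ± 0.800 FPKM in WT. Whether reads were counted by strand is not given in the sources used here, so reads of the pair cannot be told apart where they overlap.

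*bhlhe23*, once called Bhlhb4, is needed in mouse for the maturation of rod bipolar cells. The gene (ENSDARG00000037588) lies on chromosome 23, 17655790 to 17657348, minus strand. The WT libraries held 9.02, 2.32, 4.08 and 2.79 FPKM in replicates 1 to 4. The KO-labelled libraries held 1.34, 1.85, 1.78 and 3.82 FPKM. The groups overlap, and WT 1 held more than any other library. The means were 4.55 ± 3.07 FPKM and 2.2 ± 1.10 FPKM, and the log2 fold change of -0.81 did not pass the test (SE 0.382, 95% interval -1.66 to 0.03, limma adjusted p = 0.190). Without WT 1 it was -0.45. CR407550.1, a gene on the opposite strand that overlaps *bhlhe23*, had 0 reads in the 8 libraries.

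The levels of the 5 genes fell in one order in WT: *olig2*, *bhlhe22*, *olig3*, *bhlhe23* and *olig4*. The ranges of neighbours in that order did not overlap, except for *olig3* and *bhlhe23*. In the KO-labelled libraries, *olig4* stood above *bhlhe23*, with overlapping ranges, and the ranges of *olig2* and *bhlhe22* overlapped as well. By mean level over the 8 libraries, *olig2* lay above 93.6% of tested genes and *bhlhe22* above 90.7%. *olig3* lay above 69.9%, *bhlhe23* above 46.2% and *olig4* above 35.7%.

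With *olig1* added, the FPKM of the family summed to 83.7 to 131 in WT and to 78.8 to 79.5 in the KO-labelled libraries. *olig2* made up 50.7% to 57.6% of that sum in WT and 37.5% to 45.9% in the other group. *olig3* made up 5.24% to 8.33% in WT and 11.9% to 14.8% in the other group. *bhlhe22* took a like share in both groups, 29.6% to 38.1% and 32.6% to 39.7%. These shares are given without a test, since *olig4* was chosen by its difference.

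*olig1*, the neighbour of *olig2* on chromosome 9 and a gene of oligodendrocyte maturation in mouse, was too low for the filter. It had 18, 2, 2 and 3 reads in WT 1 to 4 and 3, 1, 5 and 2 reads in the KO-labelled libraries. WT 1 was the highest WT library for *olig1*, *olig2*, *bhlhe22* and *bhlhe23*, as it was for 29.4% of tested genes, and WT 3 was the highest for *olig3*. WT 1 also held the largest sums in WT of the amacrine list (242 FPKM, against 107 to 144 in the other 3) and of the motor neuron list (132 against 70.7 to 92.6). The part of these lists in the level of *olig2* was not tested.

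The dimer partners and inhibitors of bHLH proteins did not pass the test in either direction, and 0 of them had an unadjusted p under 0.05 from limma or a call by voom. Of 4 E protein genes, 3 were tested and none was called, with a median log2 fold change of -0.17 where that of all tested genes was -0.01. *tcf12* had 24.4 ± 3.30 in WT and 22.4 ± 0.626 FPKM in the other group, and *tcf3a* had 20.9 ± 3.38 and 18.8 ± 4.8 FPKM. *tcf4* had 3.06 ± 1.60 and 1.92 ± 0.504 FPKM. *tcf3b* was at or near 0 on its chromosome row, and its reads lay on an alternate contig, with 9.01 ± 2.50 and 9.52 ± 1.18 FPKM. Of 5 Id genes, none of 5 was called, with a median of -0.05. The most abundant were *id3*, with 80.1 ± 7.85 and 70.1 ± 5.99 FPKM, and *id1*, with 79.4 ± 5.81 and 90.5 ± 22.97 FPKM. *bhlhe40*, a light- and clock-related repressor, had a log2 fold change of 0.22 (limma adjusted p = 0.441). *bhlhe41* was too low for the filter and was not tested. It had 6, 16, 23 and 30 reads in WT 1 to 4 and 4, 3, 4 and 3 in the KO-labelled libraries.

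**Figure D3:**
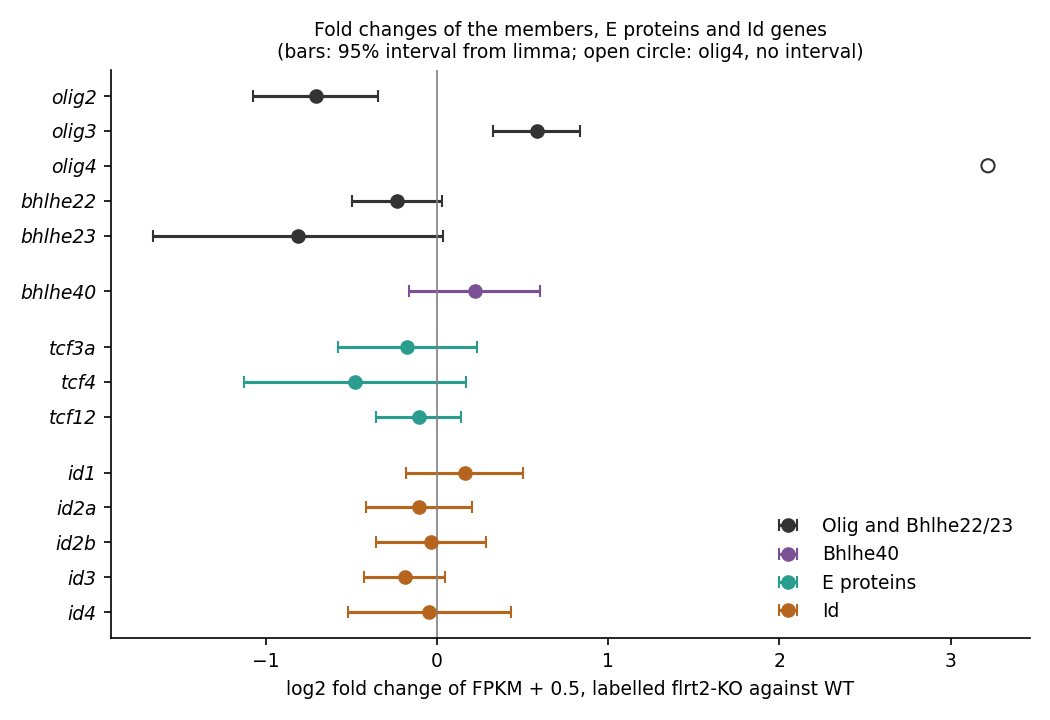
log2 fold change of FPKM + 0.5 (x axis, KO-labelled libraries against WT, n = 4 each) for the 5 genes, *bhlhe40*, 3 E protein genes and 5 Id genes; bars are 95% intervals from limma, and *olig4* has none because it was chosen by its difference. The intervals of *olig2* and *olig3* lie on opposite sides of 0 and those of the other tested genes cross it.

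Across all rows that the file assigns to the helix-loop-helix family of transcription factors, a set chosen after the values were seen, 75 of 103 were tested. Of these, 6 were called higher (8%, where all tested genes gave 8.28%) and 12 lower (16%, where all gave 7.37%). The median log2 fold change was -0.03. The 5 genes were not taken out of this set, so *olig4*, chosen by its difference, may be among the 6. Of 15 tested genes in a list of other neural bHLH factors, 5 fell and none rose, with a median of -0.38, which was -0.04 without WT 1. With the title ending as a block, 3 of the 15 fell. *atoh7*, needed for retinal ganglion cells, had a log2 fold change of -1.48 (limma adjusted p = 0.000634). *ptf1a*, of amacrine and horizontal cells, had -1.59 (limma adjusted p = 0.0141, 0.0753 with the title ending as a block). *neurod4* and *atoh8* fell on their chromosome rows. Each also has a row on an alternate contig, with log2 fold changes of 0.31 (limma adjusted p = 0.394) and 1.85 (limma adjusted p = 0.000171). The contig row of *atoh8* passed the filter through the KO-labelled libraries alone, so its rise is a description and its p-value is no test of it. *neurod4* had 15192 reads on the chromosome and 3940 on the contig in WT, and 5736 and 4326 in the KO-labelled libraries. For *atoh8* these were 619 and 5 in WT, and 211 and 196 in the KO-labelled libraries. In both genes the contig row gained fewer reads than the chromosome row lost.

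The fifth was *neurod1*, which encodes a differentiation factor of retinal neurons and photoreceptors, and it was also the gene most like *olig2* over the 8 libraries. Likeness was measured as the root mean square difference of log2(FPKM + 0.5), each gene centred on its mean, among 12909 named genes. For *neurod1* this was 0.041. It had 90.4, 50.5, 71.2 and 57.2 FPKM in WT 1 to 4 and 37.8, 40.2, 40.8 and 44.1 FPKM in the KO-labelled libraries. The WT libraries ranked in the same order for both genes. *neurod1* was picked for likeness over these same libraries, so the shared order is no separate result. Its log2 fold change was -0.68 (limma adjusted p = 0.0178, 0.0973 with the title ending as a block and 0.0538 without WT 3). *neurod1* lies on chromosome 9 as well, 11.5 Mb from *olig2*. The next were *stxbp1b*, a syntaxin-binding protein gene (0.108), and *akt3b*, a protein kinase gene (0.110).

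**Figure D4:**
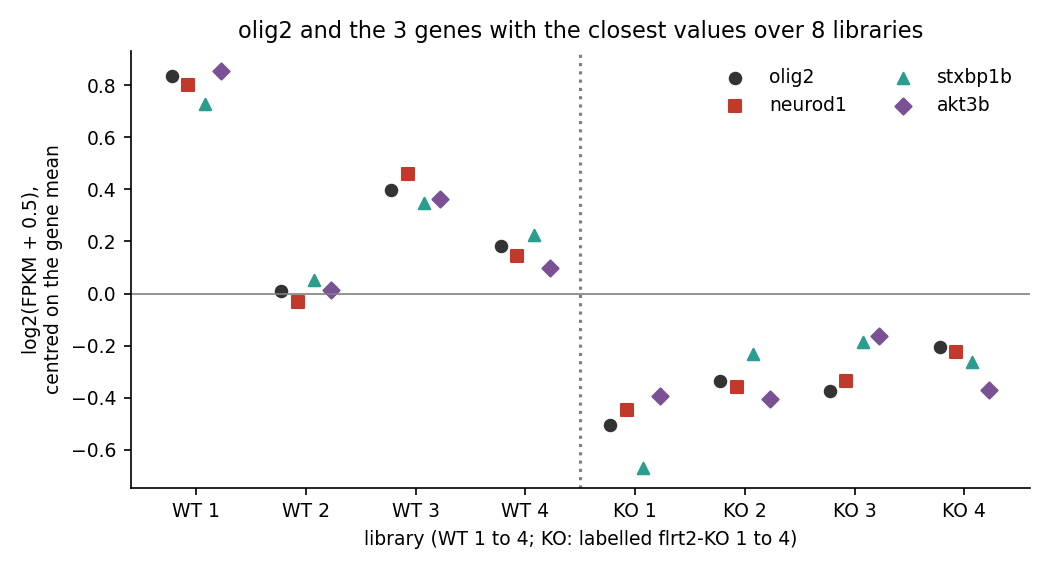
log2(FPKM + 0.5) of *olig2*, *neurod1*, *stxbp1b* and *akt3b*, each centred on its mean over the 8 libraries (y axis), in WT 1 to 4 and in the KO-labelled libraries 1 to 4 (x axis, KO); each point is 1 gene in 1 library. *neurod1* lies closest to *olig2*, with a root mean square difference of 0.041, and WT 1 is the highest library for all 4 genes. The genes shown with *olig2* were picked for likeness to it over these libraries.

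The genes most like *olig3* were *gpr161*, which encodes a ciliary receptor that restrains Hedgehog signalling (0.088), *atg4b*, a protease of autophagy (0.088), and *nin*, the centrosomal protein ninein (0.096). For *bhlhe22* they were *mpped2a*, *grcc10* and *txnl4a*, at 0.060 to 0.064. *bhlhe23* had no gene as close: *pcdh8*, a protocadherin gene, stood at 0.273, *prdm1a* at 0.282 and *kif26bb* at 0.294. *olig4* was followed by *pm20d1.1* (0.263), *hmg20b* (0.407) and *znf1025* (0.446). The WT libraries held 0.538 ± 0.187 FPKM of *pm20d1.1*, unlike *olig4*, and the other group held 9.02 ± 2.35 FPKM.

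Markers of the cell types in which the 5 genes are known were read next. Of 10 genes of the oligodendrocyte lineage tested on their chromosome rows, 2 were called higher and none lower (over all tested genes, 8.28% and 7.37%). Their median log2 fold change was 0.05. Neither of the 2 calls held in every alternative. *plp1a*, a myelin proteolipid gene, had 36.5 ± 3.17 in WT and 56.9 ± 11.4 FPKM in the other group (log2 fold change 0.61, limma adjusted p = 0.0194). Its call was lost without WT 3, WT 4 or KO-labelled library 1, 2 or 4, with limma adjusted p up to 0.0591. *sox8b* rose from a low level, 0.217 ± 0.131 to 0.749 ± 0.218 FPKM (log2 fold change 0.80, limma adjusted p = 0.0262, 0.157 with the title ending as a block, and up to 0.0798 without WT 3, WT 4 or KO-labelled library 1, 3 or 4). *sox8b* passed the filter through the KO-labelled libraries alone, so its rise is a description and its p-values are no test of it. *sox10* and *nkx2.2a*, which define the lineage with *olig2*, had log2 fold changes of -0.33 and 0.11 and were not called. In this list 3 genes had an unadjusted p under 0.05 from limma, *plp1a*, *sox8b* and, in the lower direction, *sox10*. By voom 2 genes were called. The list summed to 74.4 to 91.9 FPKM in WT and 86.8 to 113 FPKM in the other group.

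Of 7 tested genes of motor neurons and their progenitor domain, 1 rose and 2 fell (over all tested genes, 8.28% and 7.37%). Their median was -0.48. With the title ending as a block, 2 rose and 1 fell. The median was -0.26 without WT 1. *nkx6.2*, a homeobox gene of ventral progenitors, rose (log2 fold change 1.08, limma adjusted p = 0.00358). *lhx3* and *isl1*, LIM homeobox genes that are also used in the retina, fell by 1.69 and 0.86 on the log2 scale (adjusted p = 0.000817 and 0.0125 from limma; for *isl1* 0.0603 with the title ending as a block). *mnx1*, the defining gene of motor neurons, was listed at 0 in all 8 libraries. Of 12 tested genes of the dorsal hindbrain and spinal cord, the domains of *olig3*, only *lmx1bb* was called by limma on the chromosome rows. Its log2 fold change was -0.56 (limma adjusted p = 0.0161, 0.0567 with the title ending as a block). In that list 4 genes had an unadjusted p under 0.05 from limma, *barhl1a*, *lmx1bb*, *pax7a* and *wnt1*, and 2 were called by voom. The median was -0.06, or 0.09 without WT 1. A row of *pax7a* on an alternate contig had 1013 reads in WT and 1016 in the other group and was not called. Its chromosome row had 449 and 207 reads. Of the contig rows of *barhl1a*, that with a log2 fold change of -0.86 was called lower and that with -0.46 was not called.

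Of 5 tested bipolar cell genes, *isl1* alone was called, as lower. Of 9 tested amacrine cell genes, 3 fell and none rose (over all tested genes, 7.37% and 8.28%). The medians of the bipolar and amacrine lists were -0.31 and -0.66. Without WT 1 these medians were -0.11 and -0.41, and with the title ending as a block 0 bipolar and 2 amacrine genes were called, *isl1* and *ptf1a* being lost. The 3 amacrine genes were *ptf1a*, *barhl2* and *calb2a*. *calb2a* has a row on an alternate contig that was not called, with a log2 fold change of -0.39. The bipolar gene *vsx1* has such a row too, with 3.61 ± 2.82 in WT and 0.622 ± 0.287 FPKM in the other group. Neither *vsx1* row was called (log2 fold changes of -1.58 on the contig and -0.38 on the chromosome, limma adjusted p = 0.0574 and 0.480). The amacrine list summed to 107 to 242 FPKM in WT and 89.4 to 115 FPKM in the KO-labelled libraries. Its part in the fall of *olig2* was not tested. In the list of eye and retinal progenitor genes, 1 of 13 was called higher (*six3a*, chromosome row) and 2 fell (*six6b* and *otx2b*), with a median of 0.25. The 2 rows of *six3a* moved in opposite directions. Its row on an alternate contig went from 6.32 ± 1.81 in WT to 0.391 ± 0.102 FPKM, and the chromosome row took 31.9% to 64.2% of its reads in WT and 94.4% to 97.3% in the other group. The call of *six6b* was lost without WT 1, 2 or 3 or KO-labelled library 1, 2 or 4 (limma adjusted p up to 0.0986), and without WT 1 the list had 2 genes higher and 1 lower. None of 16 tested forebrain and midbrain genes was called by limma, where 2 had an unadjusted p under 0.05, 1 was called by voom on recovered reads and 1 was called without WT 1. None of 5 tested hindbrain and trunk genes was called by limma or voom, and 0 had an unadjusted p under 0.05.

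The 10 annotated genes on each side of each of the 5 genes were compared next, since position was not used to choose them. Over all tested genes, 15.6% were called, 8.28% as higher and 7.37% as lower. Of 11 tested neighbours of *olig2*, only *mxc* was called, 52.2 kb away and in the opposite direction (log2 fold change 1.59, limma adjusted p = 0.00548). Of 16 tested neighbours of *olig3*, 1 was higher (*pno1*, a ribosome assembly gene, 0.53) and 2 were lower (CABZ01044277.1, -0.57, and CABZ01044281.1, -1.20). The call of *pno1* was lost without KO-labelled library 4 (limma adjusted p = 0.0526). That of CABZ01044277.1 was lost with the title ending as a block (limma adjusted p = 0.156) and without WT 1, 3 or 4 or KO-labelled library 1, 3 or 4 (up to 0.0777). The nearest tested neighbour of *olig3*, *ifngr1*, had a log2 fold change of -0.38 and was not called. Of 11 tested neighbours of *olig4*, only *bsdc1* was called. Of 14 tested neighbours of *bhlhe23*, only *rnd1a* was called (0.65).

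*bhlhe22* had 6 called genes among 13 tested neighbours, where 15.6% of all tested genes were called. The row dre-mir-124-3, a microRNA gene named for a neuronal microRNA, lies 5.59 kb before *bhlhe22*. It had 3, 1, 3 and 2 reads in WT and 4, 3, 7 and 5 reads in the KO-labelled libraries, so its values lie near the floor. These are 1.27 ± 0.542 and 2.94 ± 1.11 FPKM (log2 fold change 0.96, limma adjusted p = 0.0498, 0.0575 with the title ending as a block). The row lost its call in 7 of the 8 fits that left out 1 library, all but that without KO-labelled library 2. Another gene of this microRNA, dre-mir-124-5, lies 126 kb after *bhlhe23* and held 36.2 to 52.3 FPKM in WT and 47.4 to 66.7 FPKM in the other group (limma adjusted p = 0.0851). The other 5, *rps6ka3b*, si:dkey-226l10.6, *eif1axb*, *map7d2b* and zgc:112982, lie 190 to 343 kb before *bhlhe22* and were lower, with log2 fold changes of -1.39 to -1.10 (*rps6ka3b* with limma adjusted p = 0.00675, or 0.05003 with the title ending as a block). Of these, *eif1axb*, *map7d2b* and zgc:112982 have rows on an alternate contig with log2 fold changes of 2.15, 1.63 and 1.08. In those 3 genes the rows on the chromosome and on the contig thus moved in opposite directions. Reads on the chromosome and contig rows of *eif1axb* were 6225 and 1130 in WT and 2410 and 4727 in the other group. For *map7d2b* they were 2014 and 262, then 605 and 916. For zgc:112982 they were 5639 and 103, then 2218 and 377, and a second contig row had 24, then 82. Only in *eif1axb* was the gain on the contig close to the loss on the chromosome.

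**Figure D5:**
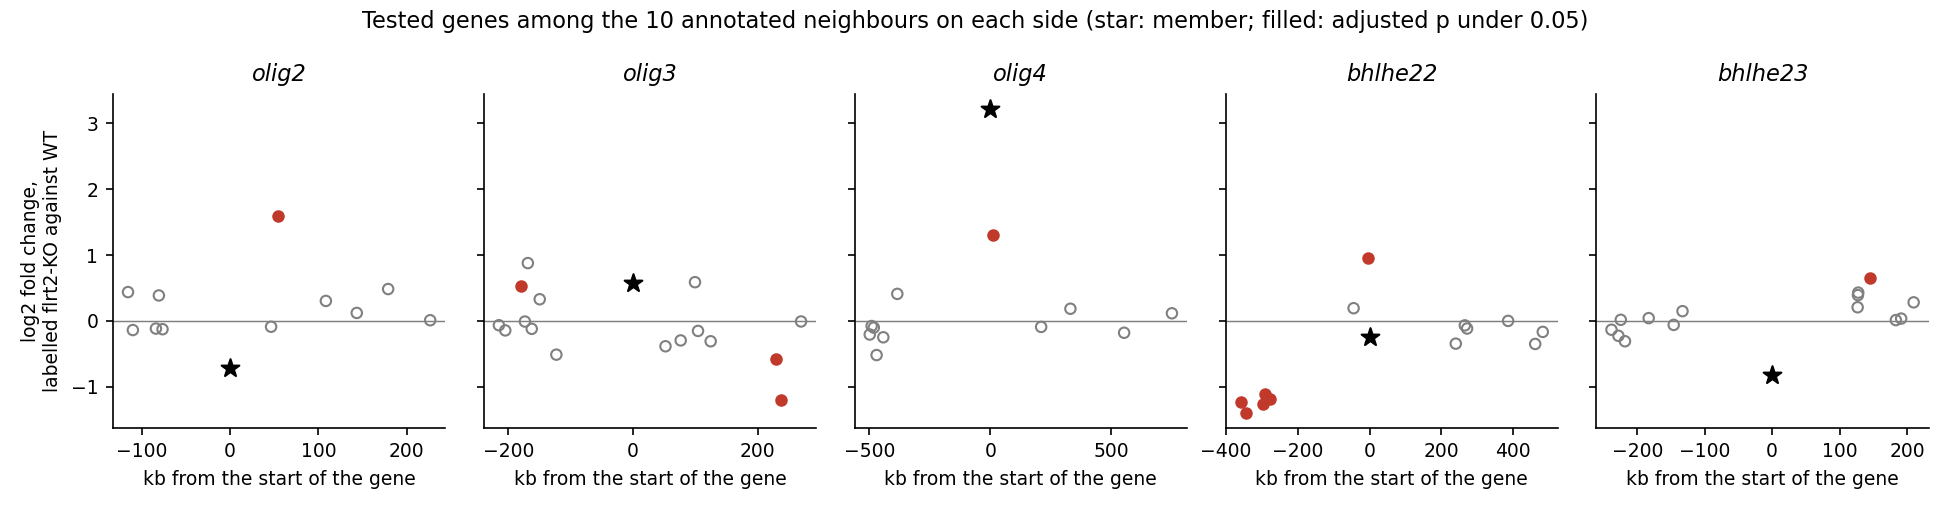
log2 fold change (y axis, KO-labelled libraries against WT) of the tested genes among the 10 annotated neighbours on each side, by distance in kb from the start of each of the 5 genes (x axes, with separate scales); the star is the gene itself, filled points had an adjusted p under 0.05 from limma and open points did not. *olig2*, *olig3* and *bhlhe23* stand among neighbours that mostly were not called, while 5 lower genes lie together before *bhlhe22*.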

How the data were processed

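Eyes of 36 hpf embryos were sequenced as 150 bp pairs in 4 WT samples and 4 *flrt2* mutant samples. Per the submitters' processing notes and the study's methods, alignment to GRCz11 was by HISAT2 2.0.5, reads of each gene were summed by featureCounts 1.5.0-p3, and the authors deposited them as FPKM. FPKM times gene length, divided by the value of 1 read, gave whole reads in every value within 1e-06, at 13423932 to 14835885 reads per library. The file also holds annotation but no comparison columns, and 0 per-sample columns were left unused.

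Genes that reached 0.5 FPKM in 4 or more libraries were tested by limma 3.58.1 in R 4.3.3 on log2(FPKM + 0.5) with a trended, robust prior and Benjamini-Hochberg adjustment over 21012 genes. The fit was tested on simulated data. Fold changes are on the log2(FPKM + 0.5) scale, which understates the change of low genes. Tables were made with Python 3.11.15 and pandas 2.3.3.

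The 5 genes and the 13 gene lists were chosen with earlier results of these data known. Genes named were the 5 genes, the 3 genes with the closest values to each, and *flrt2*. The E protein, Id, *bhlhe40*, *bhlhe41* and *olig1* genes were also named. So were up to 4 genes of each other list with the smallest p, and neighbours that were called or nearest. *otpa*, *nkx2.2a*, *pdgfra*, *mnx1*, dre-mir-124-5, CU459186.4 and si:ch211-121a2.2 fall outside that rule and were chosen after their values were seen.

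Rows on alternate contigs were assigned to a gene by shared protein accession, chromosome number and a distance within 200 kb. The 3 WT and mutant pairs that share a title ending had weakly correlated deviations from the group means (r = 0.106 to 0.141 across genes, against -0.223 to 0.112 for 13 unlike pairs). These ranges overlap, and 2 of the unlike pairs had r over 0.1. The ending was treated as pairing the libraries in the block fit. The alternatives were other pseudocounts, filters and scalings, no trend, the title ending as a block, voom on recovered reads and each library left out.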

Additional observations from a re-analysis of the deposited data

Results flagged for a closer look

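*olig1* in WT 1 had 0.790 FPKM, and the gap to the next WT library was 0.942 of the range of the 4 WT values, above Dixon's critical value for 4 samples. The other 3 WT libraries had 0.0908 to 0.132 FPKM. In reads these are 18 against 2, 2 and 3. Chance gives a gap above that critical value in about 1 in 20 groups, and 13 groups were examined. The rate for a gap as large as the one seen was not computed. *olig1* had 1 to 5 reads in the libraries labelled *flrt2*-KO.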

How the results depend on the processing

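Of 17 alternatives, *olig3*, *bhlhe22* and *bhlhe23* kept their direction and their side of the threshold in all 17, and *olig2* in 16. The paired analysis, with the title ending as a replicate block, gave -0.69 for *olig2* (adjusted p = 0.0992 from limma) and lowered the count of genes called over all genes from 3288 to 2126. Of the 38 named genes called, 25 were called with that block and 13 were not. With 1 library left out the count was 2472 to 3292 genes. The log2 fold change of *olig4*, given with no test, was 5.40 with a pseudocount of 0.1, 2.38 with a pseudocount of 1 and 7.09 by voom on recovered reads, since its WT value is 0. The difference in *flrt2*, 0.968 FPKM higher in the libraries labelled *flrt2*-KO, was 0.853 with equal column sums (exact permutation p = 0.0857). It was 0.762 to 1.16 with 1 library left out, where the exact permutation p of 0.0571 is the smallest that 4 against 3 libraries can give. *olig2*, *olig3*, *bhlhe22* and *bhlhe23* did not change direction, and that of *olig4* was fixed by how it was picked. The balance of calls over all genes turned with equal column sums, to 1456 higher and 1768 lower. Depth limits *olig4* in WT, where 0 reads allow up to 3 over the group, and *olig1*, which lay too low to test.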
